A study of Arabidopsis thaliana with 18 samples.

Results

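Class III peroxidases are the secreted peroxidases of plants, and 60 Arabidopsis thaliana loci of this family were listed by locus identifier and followed across roots of 3 genotypes with and without a root-colonizing bacterium. A locus counted as measured where the array annotation assigned at least 1 probe set (a group of short probes for 1 transcript) to that gene alone, and its brightest such probe set was used. This held for 43 of the 60 loci, each with exactly 1 such probe set, among 13286 genes measured in the same way. A further 6 loci lay only on probe sets assigned to several genes, and 11 were named by no probe set in the annotation used. These 17 loci were not analysed here as members.

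RNA came from roots of 19-day-old seedlings and was hybridised to 18 Affymetrix ATH1 arrays, in 6 groups of 3 that the series' design text calls biological replicates. Wild-type Col-0 plants were set beside myb72-2, a mutant in the Col-0 background, and beside oxMYB72, in which a FLAG-tagged MYB72 is driven by the 35S promoter in the myb72-2 background, so that oxMYB72 also carries the myb72-2 mutation. The viral 35S promoter is active in most cells, not only in those where a root normally makes the transcription factor MYB72. In each genotype 1 group was left untreated and 1 was inoculated with Pseudomonas fluorescens WCS417, a bacterium that benefits its host, by placing 10 µL of suspension on each root at day 17, which was 2 days before the age given for the seedlings.

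Class III peroxidases carry a haem group and act in the cell wall and the apoplast, where they use hydrogen peroxide to oxidise phenolic compounds. With monolignols this yields lignin, with tyrosines of extensins it crosslinks wall proteins, and in another reaction cycle the enzymes themselves produce reactive oxygen species. In roots, members of the family are known from root hair growth, from the lignin of the Casparian strip in the endodermis, from the balance between division and elongation at the tip, and from the oxidative burst of immunity.

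Values are the deposited log2 RMA values, so a difference of 1 is a doubling of signal, and errors after ± are standard errors from limma unless given as SD. A member was called higher or lower where its limma p, adjusted by Benjamini-Hochberg over 22746 probe sets, was under 0.05. The array medians lay between 6.29 and 6.42, and arrays of 1 group correlated with each other at 0.991 to 0.998. The SD between the 3 arrays of a group had a median of 0.127 over members and groups and reached 0.651. The mean level of 37 members was above that of the dimmest 30% of probe sets, and 6 members lay below it (AT1G24110, AT2G24800, AT3G50990, AT4G17690, AT5G05340 and AT5G19880). No probe set was named MYB72 in the annotation used, so the genotype labels were not checked against that gene. In RNA from whole roots, fewer cells of a type and less RNA per cell cannot be told apart.

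The first comparison asked how peroxidase transcripts respond to WCS417 in each genotype. In Col-0 17 of the 43 members (39.5%) were higher with WCS417 and 8 (18.6%) were lower, against 6.38% higher and 8.96% lower of all probe sets tested. In myb72-2 17 were higher (39.5%) and 7 lower (16.3%), against 8.52% and 12.9% of all probe sets. In oxMYB72 15 were higher (34.9%) and 5 lower (11.6%), against 10.2% and 9.09%. The counts of lower members depended on single arrays: the 8 in Col-0 became 4 without WCS417 replicate 2 and 5 without control replicate 3, and the 7 in myb72-2 became 4 without WCS417 replicate 1. In the mean over genotypes 18 were higher (41.9%) and 9 lower (20.9%), against 18.1% and 19.5%. The lower shares in myb72-2, in oxMYB72 and in the mean thus lay near those of all probe sets. The falls below are therefore values of single genes and no trait of the family. The rises were the larger changes, from 0.37 to 3.92 in Col-0, whereas the falls reached -1.45. The median of the 43 differences was near 0 in each genotype (0.05 in Col-0, 0.02 in myb72-2 and 0.09 in oxMYB72), as was that of all probe sets (0.00, 0.00 and 0.03), so the members spread to both sides and did not shift as a block.

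**Figure D1:**
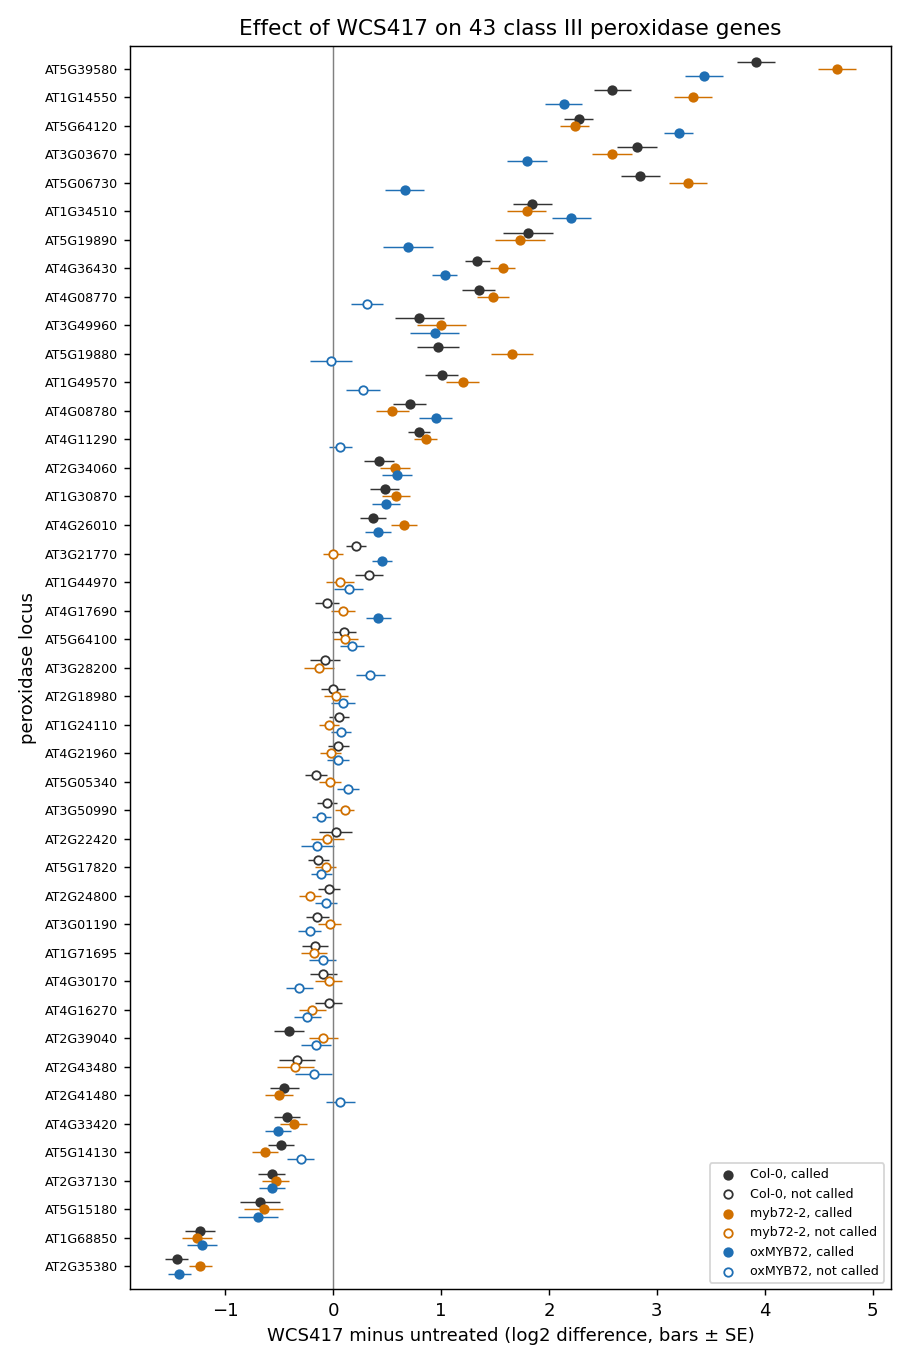
Difference between WCS417 and untreated roots (log2, horizontal axis) for each of the 43 peroxidase genes (vertical axis, ordered by the mean over genotypes) in Col-0, myb72-2 and oxMYB72. Bars are standard errors and filled points are calls at an adjusted p under 0.05; AT5G39580 lies at the top of the order and AT2G35380 at the bottom, at -1.45 in Col-0.

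AT5G39580 had the largest rise in each genotype. Its array values were 6.50, 6.30 and 6.06 in untreated Col-0 and 10.42, 10.17 and 10.02 with WCS417. In myb72-2 they were 5.85, 6.32 and 5.38 untreated and 10.24, 10.71 and 10.60 with the bacterium. In oxMYB72 they went from 5.88, 5.65 and 5.83 to 9.24, 9.25 and 9.18. The untreated and colonized arrays were thus far apart in every genotype, and the 3 colonized oxMYB72 arrays lay below all 6 colonized arrays of the other genotypes. The rise was 15.1-fold in Col-0 (3.92 ± 0.18, limma adjusted p = 1.67e-12), 25.4-fold in myb72-2 (4.67, limma adjusted p = 2.50e-13) and 10.8-fold in oxMYB72 (3.43, limma adjusted p = 2.80e-11).

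AT1G14550, a peroxidase gene known from responses to bacterial patterns, had the second largest rise in the mean over genotypes and in myb72-2, while the rises of AT5G06730 and AT3G03670 in Col-0 and of AT5G64120 and AT1G34510 in oxMYB72 had higher estimates. Untreated Col-0 arrays read 7.72, 7.20 and 6.92 and colonized ones 9.72, 10.03 and 9.85. The myb72-2 values were 7.17, 6.99 and 6.58 without and 10.06, 10.45 and 10.23 with WCS417, and those of oxMYB72 7.07, 7.49 and 7.17 without and 9.39, 9.31 and 9.43 with it. No untreated array reached a colonized one in any genotype, and the colonized oxMYB72 arrays again lay lowest of the colonized ones. The gene rose 6.01-fold in Col-0 (2.59 ± 0.17), 10.1-fold in myb72-2 and 4.39-fold in oxMYB72.

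AT5G64120 (PRX71), studied for its part in wall strengthening and defence, departed from that order. It read 8.52, 8.51 and 8.58 in untreated Col-0 and 11.03, 10.78 and 10.62 after colonization. In myb72-2 the values were 8.16, 8.37 and 7.96 and 10.26, 10.47 and 10.48. In oxMYB72 they were 7.75, 7.75 and 7.26 and 10.81, 10.75 and 10.80. Untreated oxMYB72 had the lowest level, while its colonized arrays lay within the range of the colonized Col-0 arrays. The rise was 4.84-fold in Col-0 (2.27 ± 0.13), 4.72-fold in myb72-2 and 9.21-fold in oxMYB72.

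AT3G03670 was dim and even in untreated Col-0, at 4.54, 4.54 and 4.56, and read 7.38, 7.46 and 7.26 with WCS417. The myb72-2 arrays gave 5.26, 6.01 and 5.41 untreated and 7.64, 8.44 and 8.36 colonized, and the oxMYB72 arrays 4.53, 4.31 and 4.42 and 6.46, 6.19 and 6.00. At each treatment myb72-2 was the highest genotype and oxMYB72 had the lowest mean. The rise was 7.05-fold in Col-0 (2.82 ± 0.18), 6.0-fold in myb72-2 and 3.47-fold in oxMYB72.

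AT5G06730 showed the widest gap between genotypes. In Col-0 it went from 5.94, 6.30 and 5.78 to 9.04, 8.79 and 8.73. In myb72-2 it went from 6.20, 5.90 and 5.98 to 8.80, 9.66 and 9.49. In oxMYB72 it read 5.50, 5.73 and 5.77 untreated and 6.28, 6.55 and 6.15 colonized, so that all 3 colonized oxMYB72 arrays stayed more than 2 units below every colonized array of the other genotypes. The rise was 7.2-fold in Col-0 (2.85 ± 0.18), 9.76-fold in myb72-2 and 1.58-fold in oxMYB72 (0.66, limma adjusted p = 0.0113). The oxMYB72 call was lost when control replicate 1 or WCS417 replicate 2 of that genotype was left out, with values of 0.55 to 0.75 over the 6 omissions.

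AT1G34510, a gene of the root hair list, read 4.34, 3.94 and 3.86 in untreated and 6.03, 6.08 and 5.57 in colonized Col-0. The corresponding values were 3.67, 3.15 and 3.72 and 5.14, 5.59 and 5.19 in myb72-2, and 3.31, 3.56 and 3.70 and 5.78, 5.99 and 5.43 in oxMYB72. The colonized arrays lay above the untreated ones throughout, at overall low levels. It rose 3.6-fold, 3.47-fold and 4.62-fold in Col-0, myb72-2 and oxMYB72.

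**Figure D2:**
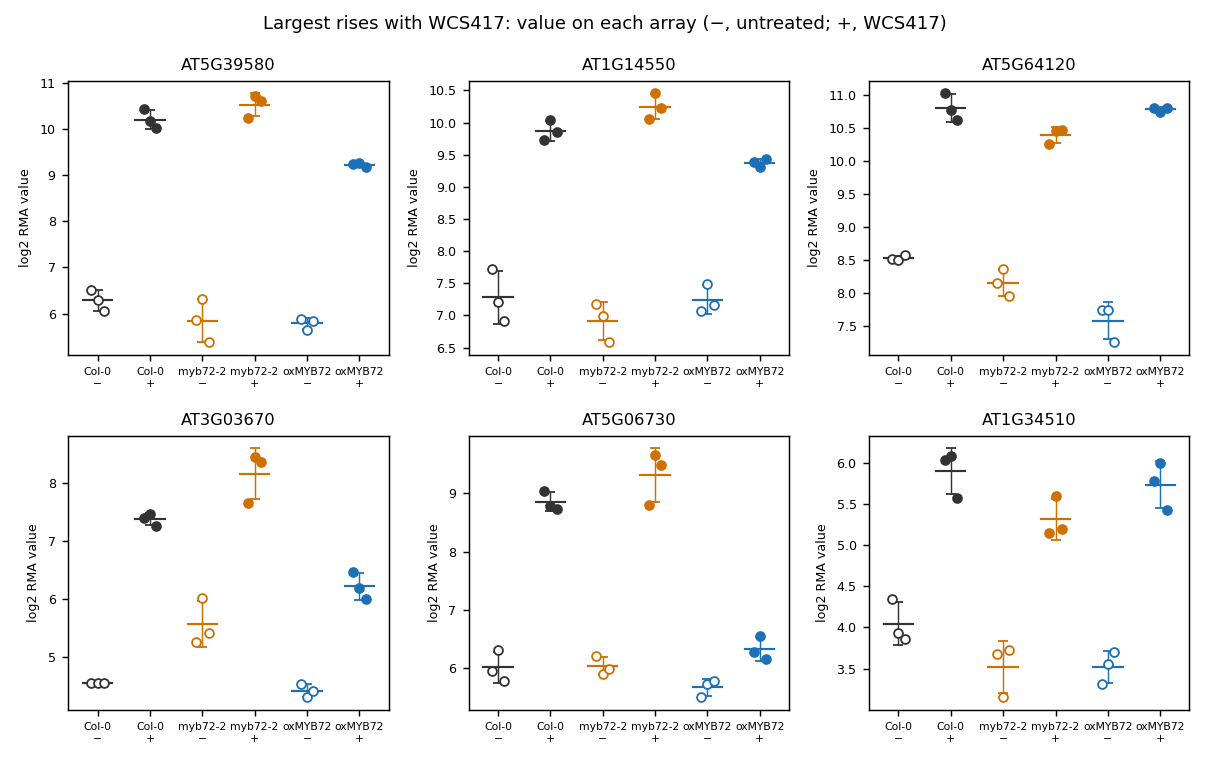
Deposited log2 RMA value on each array (points) with the mean and SD of 3 arrays (bars) for the 6 peroxidase genes with the largest mean rise, untreated (open) and with WCS417 (filled) in each genotype. Colonized arrays lie above untreated ones in all 6 panels and all 3 genotypes, and for AT5G06730 the oxMYB72 rise is 1.58-fold against 7.2-fold in Col-0.

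The falls were led by AT2G35380. Its values were 9.37, 9.30 and 9.28 in untreated and 8.09, 7.72 and 7.78 in colonized Col-0. In myb72-2 they were 9.43, 9.26 and 9.41 and 8.03, 8.23 and 8.16, and in oxMYB72 9.39, 9.36 and 9.15 and 7.96, 7.78 and 7.89. The groups were more than 1 unit apart in each genotype. It fell 2.74-fold in Col-0 (-1.45 ± 0.11, limma adjusted p = 3.02e-09), 2.35-fold in myb72-2 and 2.69-fold in oxMYB72.

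AT1G68850 behaved alike in the 3 genotypes. Col-0 went from 8.65, 8.45 and 8.38 to 7.32, 7.18 and 7.27, and myb72-2 from 8.58, 8.60 and 8.29 to 7.15, 7.21 and 7.34. The oxMYB72 arrays went from 8.37, 8.44 and 8.14 to 6.72, 7.39 and 7.18, where 1 colonized array was lower than the rest. The fall was 2.36-fold, 2.39-fold and 2.33-fold in Col-0, myb72-2 and oxMYB72, with the groups apart in each.

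AT5G15180 read 9.51, 9.33 and 9.34 in untreated and 8.83, 8.29 and 9.01 in colonized Col-0, 9.25, 9.49 and 9.33 and 8.48, 8.69 and 8.98 in myb72-2, and 8.97, 9.03 and 8.98 and 7.79, 8.51 and 8.59 in oxMYB72. It fell by 0.68, 0.64 and 0.70 on the log2 scale in the 3 genotypes, and its colonized arrays were among the more scattered ones. The call was lost in Col-0 without control replicate 1 or WCS417 replicate 2 (-0.83 to -0.47 over the omissions), in myb72-2 without control replicate 2 or WCS417 replicate 1 (-0.78 to -0.53), and in oxMYB72 without WCS417 replicate 1 (-0.84 to -0.44).

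AT2G37130 was among the bright members. In Col-0 it went from 12.73, 12.68 and 12.59 to 12.14, 11.96 and 12.18. The myb72-2 values were 12.76, 12.79 and 12.77 and 12.21, 12.35 and 12.15, and those of oxMYB72 were 12.41, 12.45 and 12.39 and 11.63, 11.67 and 12.24. Colonized arrays were lower than untreated ones in every genotype, with falls of 0.57 ± 0.12, 0.53 and 0.57 on the log2 scale.

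AT5G14130 went from 8.23, 8.21 and 8.23 to 7.61, 7.72 and 7.89 in Col-0, from 8.36, 8.14 and 8.13 to 7.39, 7.89 and 7.46 in myb72-2, and from 8.0, 8.09 and 7.78 to 7.62, 7.69 and 7.65 in oxMYB72. It was lower in Col-0 (-0.49 ± 0.12) and myb72-2 (-0.63), and its difference in oxMYB72 (-0.30, limma adjusted p = 0.0931) did not pass. The Col-0 call was lost without WCS417 replicate 1, with values of -0.56 to -0.42 over the omissions.

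AT4G33420, known from lignin of vessels, read 10.56, 10.66 and 10.79 and 10.32, 10.09 and 10.32 in Col-0, 10.66, 10.85 and 10.58 and 10.08, 10.48 and 10.42 in myb72-2, and 10.69, 10.72 and 10.79 and 10.24, 10.41 and 10.01 in oxMYB72, each untreated and then colonized. The groups did not overlap in any genotype. It fell by 0.43, 0.37 and 0.51 on the log2 scale, a call that was lost in Col-0 without control replicate 3 or WCS417 replicate 2 (-0.48 to -0.35) and in myb72-2 without control replicates 1 or 2 or WCS417 replicate 1 (-0.44 to -0.24).

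**Figure D3:**
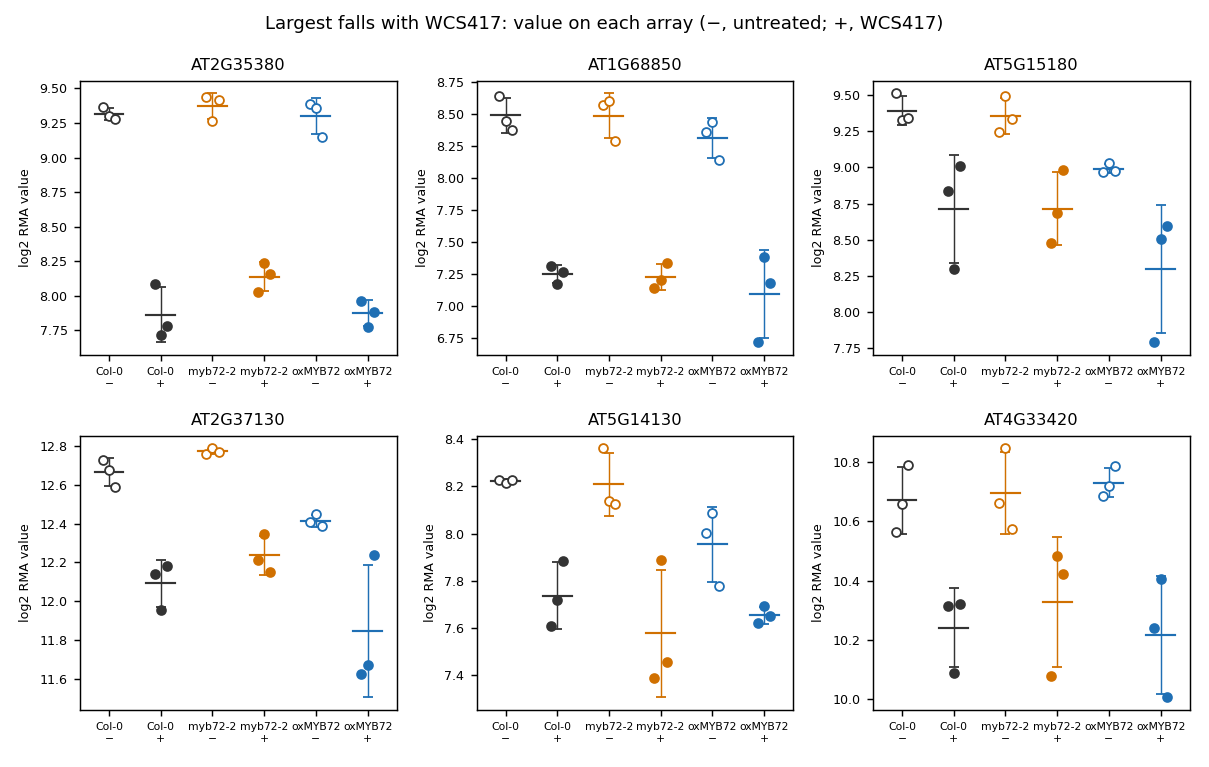
Deposited log2 RMA value on each array (points) with the mean and SD of 3 arrays (bars) for the 6 peroxidase genes with the largest mean fall, untreated (open) and with WCS417 (filled) in each genotype. AT2G35380 and AT1G68850 drop by more than 1 unit in each genotype, and the other 4 genes by less than 1.

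The sets of members that rose overlapped widely. The 17 members called higher in Col-0 were the same 17 as in myb72-2, and 13 of them (76.5%) were also among the 15 higher in oxMYB72 (86.7% of those). Some of these calls were weak in Col-0, where 13 to 18 members were higher with 1 array left out, the fewest without control replicate 3. The Col-0 call of AT2G34060 (0.43) was lost without replicate 2 or 3 of either group (0.28 to 0.58 over the omissions) and with the replicate number as a block (limma adjusted p = 0.0513). AT1G49570, AT4G08770, AT4G11290 and AT5G19880 were called in Col-0 and myb72-2 and not in oxMYB72, and AT3G21770 (0.46) and AT4G17690 (0.42) were called in oxMYB72 alone. All 5 members lower in oxMYB72 (AT1G68850, AT2G35380, AT2G37130, AT4G33420 and AT5G15180) were also lower in Col-0 and myb72-2. A call in 1 genotype and not in another is no test of a difference, and those tests follow below. As a description over the 43 members, whose values come from the same arrays, the Col-0 response correlated with that of myb72-2 at r = 0.985 (0.892 over all probe sets) and with that of oxMYB72 at 0.879 (0.678 over all probe sets).

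By role, the list of peroxidases linked to immunity and the apoplastic oxidative burst moved furthest. The lists are short and were chosen with earlier results of these data known, so this order is a description only. Of its 11 loci 7 were measured, and 6 were higher and 1, AT2G37130, lower in Col-0 and in myb72-2. In oxMYB72 4 were higher and the same 1 lower. Of all probe sets, 6.38%, 8.52% and 10.2% were higher and 8.96%, 12.9% and 9.09% lower in Col-0, myb72-2 and oxMYB72. The median difference of the 7 was 2.27 in Col-0, 2.24 in myb72-2 and 0.66 in oxMYB72, against medians of at most 0.09 over all 43 members. The place of AT5G06730 and AT5G19880 in this list is less certain than that of the others. Without them, 4 of 5 were higher and 1 lower in Col-0 and in myb72-2, and 3 were higher and 1 lower in oxMYB72, where the median was 2.13.

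Of 9 peroxidases linked to root hairs, 5 were measured. With WCS417 4 were higher in each genotype, against 6.38%, 8.52% and 10.2% of all probe sets in Col-0, myb72-2 and oxMYB72. These were AT1G34510, AT3G49960 (0.80 in Col-0, 1.00 in myb72-2 and 0.94 in oxMYB72), AT1G30870 (0.48, 0.58 and 0.49) and AT4G26010 (0.37, 0.66 and 0.42), while AT3G01190 was not called. The place of AT1G34510 and AT3G01190 in this list is less certain, and without them all 3 measured members were higher in each genotype. Outside the family, the root hair expansin gene EXPA18 was also higher in each genotype (0.71, 0.79 and 0.73), and EXPA7 gave 0.40 in Col-0, where it did not pass, and rose by 0.51 and 0.52 in the other genotypes. These were the 2 of 11 root hair markers that were measured. On untreated and colonized arrays EXPA18 spanned 7.99 to 8.36 and 8.81 to 8.95 in Col-0, 7.86 to 8.08 and 8.58 to 8.94 in myb72-2, and 7.53 to 8.0 and 8.35 to 8.62 in oxMYB72. Their part in the rise of the peroxidases was not tested. In Col-0 the calls of the 3 smaller rises were lost on some omissions, for AT3G49960 without control replicate 3 or WCS417 replicates 1 or 3 (0.71 to 0.85), for AT1G30870 without replicate 3 of either group (0.37 to 0.56), and for AT4G26010 without replicates 2 or 3 of the control or 1 or 2 of WCS417 (0.27 to 0.47). In oxMYB72 AT3G49960 kept its call but gave 0.58 without control replicate 1 (0.58 to 1.21 over the omissions), and the calls of AT1G30870 (0.39 to 0.60) and AT4G26010 (0.30 to 0.49) were lost without control replicate 1 or WCS417 replicate 2.

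Of 4 peroxidases of the Casparian strip, 2 were measured. AT4G11290 rose in Col-0 (0.79 ± 0.10) and myb72-2 (0.86), and gave 0.07 in oxMYB72, while AT1G44970 gave 0.33, 0.06 and 0.14 and was not called. AT4G11290 also belongs to the 3 measured genes that the root tip regulator UPBEAT1 is known to repress, and neither of the others, AT4G16270 and AT5G17820, was called in any genotype. The regulator's own gene, UPB1, gave 0.33 in Col-0 and 0.26 in myb72-2, and rose by 0.66 in oxMYB72 (limma adjusted p = 0.0169). That effect did not differ by the test from the effect in Col-0 (0.33) or in myb72-2 (0.40). Mean UPB1 levels were 8.17, 8.14 and 7.61 untreated and 8.50, 8.40 and 8.26 colonized in Col-0, myb72-2 and oxMYB72. The part of UPB1 in the AT4G11290 values was not tested.

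None of the 5 measured peroxidases of stem and vessel lignin was higher with WCS417. Of all probe sets, 6.38%, 8.52% and 10.2% were higher and 8.96%, 12.9% and 9.09% lower in Col-0, myb72-2 and oxMYB72. AT4G33420 was lower in each genotype and AT2G41480 (PRX25) was lower in Col-0 (-0.45) and myb72-2 (-0.50) and gave 0.07 in oxMYB72. AT2G22420, AT4G21960 (PRXR1) and AT5G05340 (PRX52) were not called. The AT2G41480 call was lost in Col-0 without control replicates 2 or 3 or WCS417 replicate 2 (-0.53 to -0.35) and in myb72-2 without WCS417 replicate 1 (-0.56 to -0.40).

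In all, 16 members were called in no genotype, and the largest absolute difference among values not called was 0.34 in Col-0 and 0.35 in each of the other genotypes. An example is AT5G64100, which read 12.99, 12.70 and 12.98 in untreated and 13.06, 13.13 and 12.78 in colonized Col-0, with differences of 0.10, 0.11 and 0.18 in the 3 genotypes. It lies on the same chromosome as AT5G64120 with 1 protein-coding gene between them, and its untreated and colonized arrays overlapped in Col-0 and myb72-2 and not in oxMYB72.

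The second comparison asked whether loss of MYB72 alters peroxidase levels or their response. Untreated, only AT3G03670 was called, higher in myb72-2 than in Col-0 by 1.01 ± 0.18 (limma adjusted p = 0.0473), against 0.0044% of all probe sets called higher and 0.0352% called lower. That 0.0044% was 1 probe set, the one of AT3G03670 itself, so it is no separate background for this gene. Its 3 untreated myb72-2 arrays, given above, all lay above the Col-0 arrays. The call was lost without any 1 of the 6 arrays, with values of 0.79 to 1.16, and under 3 other settings with values of 1.01 to 1.02. With WCS417 no member was called by limma between myb72-2 and Col-0, against 0.127% of all probe sets called either way, and 10 members had an unadjusted p under 0.05. The share of all probe sets under that unadjusted threshold was not counted, so the 10 cannot be set against it. Leaving out WCS417 replicate 1 of myb72-2 gave 1 call. The colonized difference of AT3G03670 was 0.78, with a 95% interval of 0.40 to 1.16.

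When the response in myb72-2 was tested against that in Col-0, limma called no member, against 0.0176% of all probe sets called, and 3 members had an unadjusted p under 0.05. The share of all probe sets under the unadjusted threshold was not counted here either. The 43 differences ranged from -0.26 to 0.75. The upper end was held by AT5G39580 (0.75, 95% interval 0.23 to 1.27) and AT1G14550 (0.75, 95% interval 0.23 to 1.26), and AT5G19880 followed (0.69, 95% interval 0.11 to 1.27). These 3 rises were larger in myb72-2 by intervals that leave out 0 before adjustment and did not pass after it.

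The third comparison asked what constitutive MYB72 does to the response. Set against Col-0, the WCS417 effect in oxMYB72 differed by the test for 5 members, 1 with a larger rise and 4 with a smaller one in oxMYB72, against 0.347% and 1.4% of all probe sets. Against myb72-2 it was called for 8 members, 1 larger and 7 smaller, against 0.928% and 1.86%. Both tests use the same 6 oxMYB72 arrays, so they are not independent.

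AT5G06730 had the largest difference, -2.18 ± 0.25 against Col-0 (limma adjusted p = 1.04e-05) and -2.63 ± 0.25 against myb72-2 (limma adjusted p = 6.94e-07). AT5G64120 (PRX71) was the member with the larger rise in oxMYB72, by 0.93 ± 0.19 against Col-0 (limma adjusted p = 0.0076) and 0.96 ± 0.19 against myb72-2 (limma adjusted p = 0.00448). For AT5G64120 the genotypes were apart before colonization and close after it, with oxMYB72 minus Col-0 at -0.95 untreated and -0.02 with WCS417. For AT5G06730 the reverse held, with untreated means of 6.01, 6.03 and 5.66 and colonized means of 8.86, 9.32 and 6.33 in Col-0, myb72-2 and oxMYB72.

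AT4G08770 (Prx37), whose overexpression is known to restrain growth, read 8.69, 8.69 and 8.68 in untreated and 10.19, 9.61 and 10.30 in colonized Col-0. In myb72-2 it read 8.74, 8.81 and 8.70 and 10.30, 9.90 and 10.49, and in oxMYB72 8.44, 8.51 and 8.44 and 8.62, 8.90 and 8.82. Col-0 and myb72-2 rose 2.54-fold and 2.79-fold, whereas the colonized oxMYB72 arrays lay above its untreated ones without overlap but close to them, and below all colonized arrays of the other genotypes. The oxMYB72 difference was 0.32 and was not called, and the effect differed by -1.03 ± 0.21 from Col-0 (limma adjusted p = 0.00846) and by -1.16 ± 0.21 from myb72-2 (limma adjusted p = 0.00221).

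AT4G11290 gave 8.54, 8.48 and 8.56 in untreated and 9.27, 9.28 and 9.42 in colonized Col-0, and 8.77, 8.71 and 8.65 and 9.44, 9.57 and 9.68 in myb72-2. In oxMYB72 the values 8.16, 8.49 and 8.52 and 8.36, 8.51 and 8.50 overlapped. Its effect in oxMYB72 differed by -0.73 ± 0.15 from Col-0 (limma adjusted p = 0.00759) and by -0.79 ± 0.15 from myb72-2 (limma adjusted p = 0.00288).

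AT5G19880, a dim gene, read 3.29, 3.27 and 3.29 in untreated and 4.54, 4.54 and 3.67 in colonized Col-0, and 3.24, 2.80 and 3.20 and 5.18, 4.34 and 4.70 in myb72-2. On oxMYB72 arrays it read 3.22, 3.16 and 3.37 without and 3.27, 3.23 and 3.19 with WCS417, groups that overlapped. The effect in oxMYB72 differed from that in myb72-2 by -1.68 ± 0.28 (limma adjusted p = 0.00074), and against Col-0 the difference of -0.99 did not pass (limma adjusted p = 0.0827).

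Among the strongly induced genes, AT5G39580 and AT1G14550 rose less in oxMYB72 than in myb72-2, with differences of -1.23 ± 0.25 (limma adjusted p = 0.00624) and -1.20 ± 0.25 (limma adjusted p = 0.00681). Against Col-0 their differences were -0.48 and -0.45 and were not called. AT1G49570 also rose less than in myb72-2 (-0.92 ± 0.22, limma adjusted p = 0.0215), a call lost in 5 of 12 omissions with values of -1.10 to -0.77, namely without myb72-2 control replicate 1 or WCS417 replicate 2, or without oxMYB72 control replicates 1 or 2 or WCS417 replicate 3. AT3G03670 rose less than in Col-0 (-1.02 ± 0.26, limma adjusted p = 0.0457), and this call was kept only when WCS417 replicate 1 of oxMYB72 was the array left out, with values of -1.14 to -0.91 over the 12 omissions. In the immunity list 5 of 7 measured members had a smaller and 1 a larger effect in oxMYB72 than in myb72-2 (1.86% and 0.928% of all probe sets), and against Col-0 the counts were 2 and 1 (1.4% and 0.347%). Without AT5G06730 and AT5G19880, 3 of 5 had a smaller and 1 a larger effect against myb72-2, and 1 and 1 against Col-0. Of the 5 measured root hair members, none was called in that comparison.

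**Figure D4:**
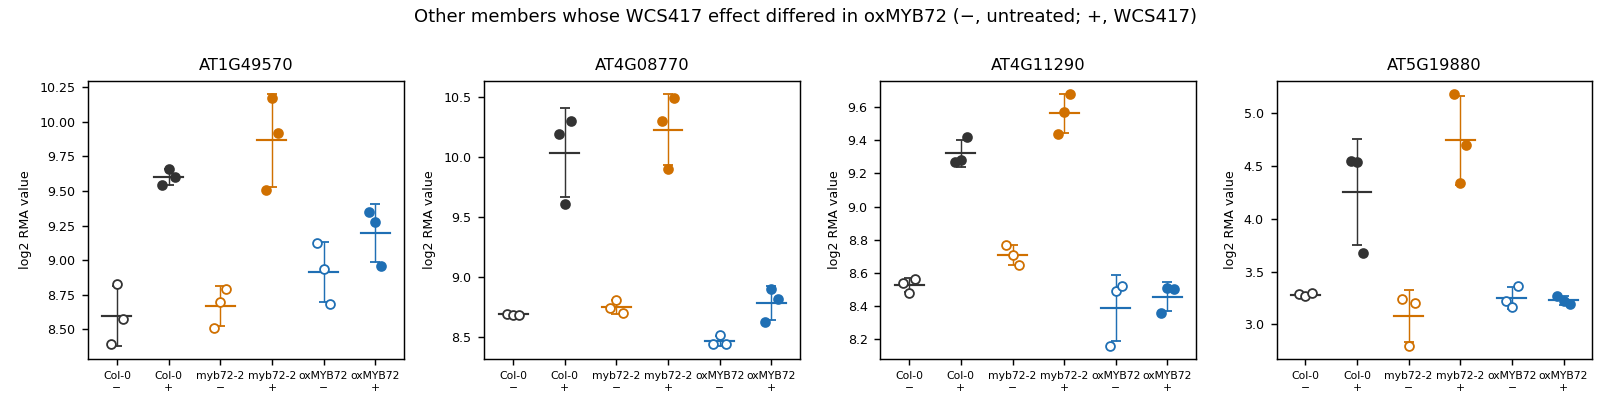
Deposited log2 RMA value on each array (points) with the mean and SD of 3 arrays (bars) for the peroxidase genes, beyond those with the largest rises, whose WCS417 effect differed in oxMYB72, untreated (open) and with WCS417 (filled). For AT4G08770, AT4G11290 and AT5G19880 the colonized arrays stand above the untreated ones in Col-0 and myb72-2, while the oxMYB72 differences are 0.32, 0.07 and -0.02.

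The fourth comparison set the levels in oxMYB72 beside those of the other genotypes at the same treatment. Every member called in it was lower in oxMYB72, although 1 member was called higher with WCS417 against each genotype in the fit with the replicate number as a block, and 1 against myb72-2 without WCS417 replicate 1 of myb72-2. With WCS417 12 members were lower than in myb72-2, against 2.66% of all probe sets (2.86% were higher), and 9 were lower than in Col-0, against 2.24% (2.02% were higher). The median over the 43 members was -0.22 against myb72-2 and -0.25 against Col-0, where the median of all probe sets was 0.01 in both, and 32 and 36 members had a negative difference. The members share the same arrays, so these signs are not separate observations. All 9 lower than Col-0 were also lower than myb72-2, in tests that share the oxMYB72 arrays.

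The widest gap with WCS417 was that of AT5G06730, which was 7.94-fold lower than in myb72-2 (-2.99, limma adjusted p = 2.06e-10) and 5.77-fold lower than in Col-0 (-2.53, limma adjusted p = 3.94e-09). AT3G03670 was second against myb72-2 (-1.94) and gave -1.15 against Col-0, where AT5G19890 and AT4G08770 had wider gaps. AT4G08770, AT4G11290, AT5G19880 and AT5G39580 were also lower than in either genotype, by log2 differences between -1.51 and -0.87. AT3G01190 gave -0.55 against myb72-2 and -0.39 against Col-0, the latter lost under repeated quantile normalization and without any 1 colonized Col-0 array or oxMYB72 WCS417 replicates 1 or 2 (-0.49 to -0.30). AT1G14550 (-0.87), AT1G49570 (-0.67) and AT4G30170 (-0.48) were called against myb72-2 alone, and the AT1G49570 call was lost without WCS417 replicate 2 of myb72-2 or 3 of oxMYB72 (-0.85 to -0.52), as was that of AT4G30170 without WCS417 replicates 1 or 3 of myb72-2 or 1 of oxMYB72 (-0.60 to -0.29). AT5G19890 read 9.22, 9.05 and 9.15 in colonized Col-0, 9.24, 9.47 and 9.32 in colonized myb72-2 and 7.57, 7.90 and 7.99 in colonized oxMYB72, so that the oxMYB72 arrays lay lowest with no overlap. Its difference was -1.52 against myb72-2 (limma adjusted p = 0.00015) and -1.32 against Col-0 (limma adjusted p = 0.000928). Untreated, the same gene read 7.06, 7.97 and 6.98, 7.21, 7.80 and 7.82 and 7.70, 6.96 and 6.73 in Col-0, myb72-2 and oxMYB72, with overlap. Its rise of 1.81 in Col-0 compared with 0.69 in oxMYB72, where the untreated and colonized arrays overlapped. That rise in oxMYB72 (limma adjusted p = 0.0407) was lost under median centring, under a variance trend with robust moderation, and without replicate 2 or 3 of either oxMYB72 group (0.49 to 0.98), and the difference of the effects, -1.11, was not called.

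AT4G36430 was lower in oxMYB72 at both treatments when set against Col-0. It read 8.44, 8.75 and 8.46 in untreated Col-0, 8.29, 8.28 and 8.49 in untreated myb72-2 and 7.81, 8.11 and 8.10 in untreated oxMYB72. With WCS417 it read 9.95, 9.83 and 9.90, 9.98, 9.73 and 10.06 and 9.14, 9.06 and 8.93. The oxMYB72 arrays were the lowest in each set, with differences of -0.55 untreated (limma adjusted p = 0.00404) and -0.85 colonized against Col-0, and the gene still rose with WCS417 in each genotype (1.34, 1.57 and 1.03).

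Without bacteria, 6 members were lower in oxMYB72 than in myb72-2, against 3.27% of all probe sets (3.53% were higher), and 4 were lower than in Col-0, against 3.58% (3.83% were higher). The median over the 43 was -0.21 against myb72-2 and -0.18 against Col-0, where all probe sets had medians of -0.04 and -0.03, and 35 and 39 members were negative. The measured green tissue markers moved with this comparison, LHCB4.2 by -0.55 against myb72-2 and LHCB4.1 by -0.44 against myb72-2 and -0.45 against Col-0, all called, while LHCB4.2 against Col-0 (-0.35) did not pass. With WCS417 neither was called against myb72-2 or Col-0 (LHCB4.2 -0.10 and -0.22, LHCB4.1 0.19 and 0.00). The measured root hair markers were negative in oxMYB72 at both treatments and never called. Against Col-0 EXPA7 gave -0.41 untreated and -0.29 with WCS417, and EXPA18 -0.39 and -0.36. The part of these markers in the peroxidase differences was not tested. The untreated counts depended on single arrays. Without any 1 of the 6 arrays the first was 3, and without 1 array the second was 2 or 3. The count of 4 against Col-0 was 8 with a variance trend and robust moderation, 7 without the dimmest probe sets and 8 with only the arrays compared. With arrays centred on their medians the counts were 3 and 2, and the median against Col-0 was -0.12, with 34 members negative. With that centring the share of higher calls among all called probe sets moved from 51.9% to 67.4% against myb72-2 and from 51.7% to 65.1% against Col-0.

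The lower untreated members included AT5G64120 (-0.58 ± 0.13 against myb72-2 and -0.95 against Col-0) and AT3G03670 (-1.15 against myb72-2). The AT5G64120 call against myb72-2 was lost without control replicate 2 of myb72-2 or control replicate 3 of oxMYB72 (-0.67 to -0.41). AT4G08780 read 7.35, 7.80 and 7.24, 7.72, 7.37 and 7.49 and 6.97, 6.83 and 6.92 on untreated arrays of Col-0, myb72-2 and oxMYB72, and 8.38, 8.02 and 8.11, 7.82, 8.05 and 8.36 and 7.87, 8.06 and 7.64 on colonized ones. Its untreated oxMYB72 arrays lay below those of the other genotypes, and its colonized arrays overlapped between genotypes. The untreated difference was -0.62 against myb72-2 (limma adjusted p = 0.0153) and -0.55 against Col-0 (limma adjusted p = 0.0295). The first was lost without control replicate 1 of myb72-2 or 2 of oxMYB72 (-0.70 to -0.52), and the second without control replicate 2 of Col-0 or any 1 control replicate of oxMYB72 (-0.67 to -0.39) and under median centring.

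AT1G71695 read 8.25, 8.10 and 8.07, 8.07, 8.32 and 8.24 and 7.69, 7.81 and 7.72 on untreated arrays of Col-0, myb72-2 and oxMYB72, lowest in oxMYB72. AT2G18980 read 10.99, 10.91 and 10.85, 10.99, 10.94 and 10.89 and 10.33, 10.58 and 10.74 in the same order, again lowest in oxMYB72. The differences were small, -0.47 against myb72-2 for AT1G71695 and -0.39 and -0.37 against myb72-2 and Col-0 for AT2G18980. The AT1G71695 call was lost without control replicates 2 or 3 of myb72-2 or 1 or 3 of oxMYB72 (-0.54 to -0.41). Those of AT2G18980 were lost without any 1 control array of the other genotype or oxMYB72 control replicates 1 or 2 (-0.49 to -0.28 and -0.46 to -0.26). The call of AT3G01190 against myb72-2 (-0.36) was lost in 5 of 6 omissions (-0.43 to -0.29), all but that of control replicate 2 of myb72-2.

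**Figure D5:**
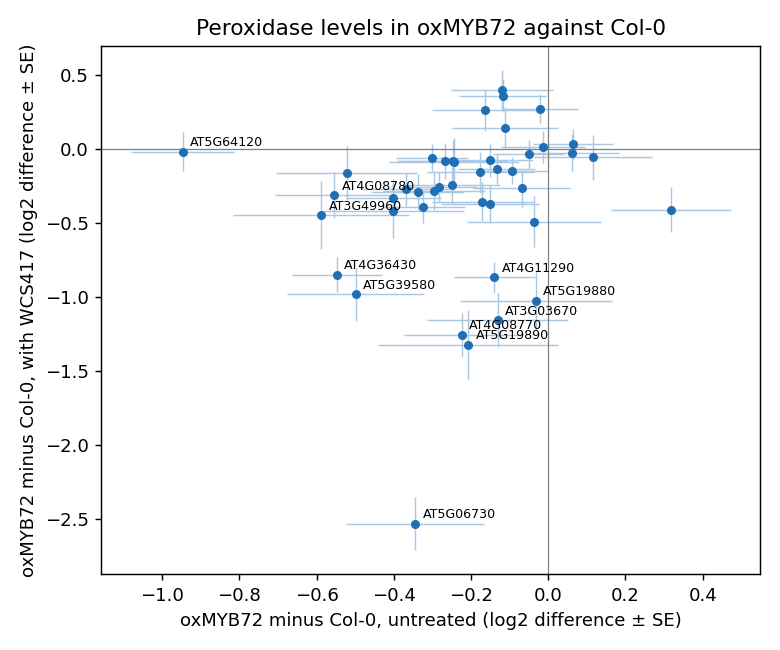
Difference between oxMYB72 and Col-0 (log2) for each of the 43 peroxidase genes in untreated roots (horizontal axis) and with WCS417 (vertical axis), with standard errors as bars. Most points lie below 0 on both axes (39 untreated and 36 colonized), AT5G06730 lies lowest at -2.53 with WCS417, and AT5G64120 lies farthest left at -0.95.

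Neighbours in the genome were set side by side, and they did not all move alike. AT4G08770 and AT4G08780 lie next to each other on chromosome 4, and the WCS417 differences in Col-0, myb72-2 and oxMYB72 were 1.35, 1.48 and 0.32 (the last not called) for AT4G08770 and 0.71, 0.55 and 0.95 for AT4G08780. AT5G19880 and AT5G19890 are adjacent on chromosome 5, and in both the colonized oxMYB72 arrays lay below those of the other genotypes. These differences between probe sets were not tested. The myb72-2 call of AT4G08780 was lost without control replicate 2 or WCS417 replicate 3 (0.41 to 0.68).

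Genes that supply or use what peroxidases act on were sparsely measured. Of 10 NADPH oxidase genes, the source of apoplastic superoxide, 3 were measured. AT4G25090 (RBOHG) rose in Col-0 (0.74) and myb72-2 (0.54), and was higher in untreated oxMYB72 than in Col-0 (0.75) and myb72-2 (0.64). AT4G11230 (RBOHI) rose in myb72-2 (0.63). It was lower in oxMYB72 both untreated and with WCS417, against Col-0 (-0.70 and -0.95) and against myb72-2 (-0.78 and -1.39). AT1G19230 (RBOHE) was not called for WCS417. On colonized arrays RBOHE was lower in oxMYB72 than in myb72-2 (-0.47, limma adjusted p = 0.0494). Of 18 genes of monolignol synthesis 2 were measured. The gene HCT was 2.47 higher in untreated oxMYB72 than in Col-0 (limma adjusted p = 2.16e-12) and 1.57 higher with WCS417, and its WCS417 effect was 0.44 in Col-0 and -0.45 in oxMYB72. CCR2 was lower with WCS417 in Col-0 (-0.35) and oxMYB72 (-0.63). The extensin gene HRGP1, 1 of 3 listed, rose in Col-0 (0.80) and myb72-2 (0.68) and gave 0.42 in oxMYB72. None of 13 genes for removal of hydrogen peroxide and superoxide and none of 3 laccase genes had a probe set of its own in the annotation used.

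Other marker lists also moved with WCS417. Of 8 green tissue markers 2 were measured and both fell in each genotype, LHCB4.2 by 1.14, 1.45 and 1.00 and LHCB4.1 by 1.10, 1.28 and 0.65 on the log2 scale in Col-0, myb72-2 and oxMYB72. On untreated and colonized arrays LHCB4.1 spanned 8.64 to 8.98 and 7.54 to 7.73 in Col-0, 8.63 to 8.87 and 7.30 to 7.71 in myb72-2, and 8.17 to 8.41 and 7.46 to 7.86 in oxMYB72. Of 9 Casparian strip markers 2 were measured, of which AT1G61590 was lower with WCS417 (-0.52, -0.75 and -0.79) and GSO1 was not called. No listed marker of non-hair epidermis, of endodermis and stele or of dividing cells was measured. The control probe sets that compare the 3′ and 5′ ends of a transcript moved with WCS417 by -0.17 to 0.11 in the mean of the genotypes, with opposite signs in 2 sets of controls for actin (0.10 and -0.13) and GAPDH (0.11 and -0.17). The part of these values in the peroxidase changes was not tested.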

How the data were processed

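Messenger RNA of 18 root samples was measured on Affymetrix ATH1 arrays. The deposited values were made by the authors with RMA, per the submitters' processing notes, which name no version. A log2 scale was assumed for these deposited values because RMA produces one and they range from 2.42 to 14.63. RMA makes the arrays alike in distribution and compresses differences near background. Groups and replicate numbers came from the sample titles. Of 22810 probe sets 64 controls were left out. The platform annotation named 1 gene for 13513 of those tested, several for 503 and none for 8730, which are unnamed here. Symbols and gene order came from RefSeq's gene table for TAIR10.1.

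All 18 arrays were fitted together, with 1 mean for each group, in limma 3.58.1 in R 4.3.3 (lmFit, eBayes, two-sided), and 13 comparisons were drawn from it, each with Benjamini-Hochberg adjustment over 22746 probe sets. The fit was also run on simulated data with independent noise and few changed probe sets. Those settings are unlike these arrays, so that run is no check of the calls given here. Tables and plots used Python 3.11.15, pandas 2.3.3 and matplotlib 3.10.9. Array values were given for the 6 largest called rises and falls, up to 4 members per genotype comparison and direction and up to 6 per difference of effects, plus AT5G64100, whose array values were picked after they were seen. The members, lists and tests were chosen with earlier results of these data known. The labels do not say whether replicates were grown or processed together, so the p-values cover only the spread among these arrays, which may be partly technical. The number of arrays limits the precision. Alternatives tried were omission of each array, a block for the replicate number, centring on array medians, repeated quantile normalization, robust moderation with a variance trend, fits on only the arrays compared, and leaving out the 30% dimmest probe sets.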

Additional observations from a re-analysis of the deposited data

Results flagged for a closer look

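The WCS417 effect differed between genotypes, by limma's test of the difference itself, for 9 members. Against Col-0 the effect in oxMYB72 was smaller for AT5G06730 (-2.18), AT4G08770 (-1.03), AT3G03670 (-1.02) and AT4G11290 (-0.73) and larger for AT5G64120 (0.93), each on the log2 scale. Against myb72-2 it was smaller for AT5G06730 (-2.63), AT5G19880 (-1.68), AT5G39580 (-1.23), AT1G14550 (-1.20), AT4G08770 (-1.16), AT1G49570 (-0.92) and AT4G11290 (-0.79) and larger for AT5G64120 (0.96). The call of AT3G03670 against Col-0 was lost in 11 of 12 omissions of 1 array, and that of AT1G49570 against myb72-2 in 5 of 12. Both comparisons use the same oxMYB72 arrays. With 3 arrays per group, single arrays far from their group were not tested for.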

How the results depend on the processing

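Of 141 called values of single members, no alternative reversed a direction. The variance trend, the replicate block, the fits on only the arrays compared and leaving out dim probe sets do not change log2 differences. Those settings could therefore not reverse a direction, and only renormalization and the omission of arrays could. Calls were lost for 5 with quantile normalization repeated, 8 with median centring, 1 with a variance trend and robust moderation, 1 of 134 without the 30% dimmest probe sets, 8 of 114 with only the arrays compared, and 115 of 1248 values with 1 array left out. Dimness was judged on colonized arrays too, through which alone AT1G34510 passed, so leaving out dim probe sets is no check of its rise.

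Total counts of called members, higher and lower together, moved by over 1.5 times in 4 comparisons. For untreated myb72-2 against Col-0 the count of 1 was 0 with median centring, without the dimmest probe sets, with only the arrays compared, and without any 1 array (0 to 0). For untreated oxMYB72 against myb72-2 the count of 6 was 3 with median centring and without any 1 array (3 to 3). For untreated oxMYB72 against Col-0 the count of 4 was 2 with median centring, 8 with the variance trend, 7 without the dimmest probe sets, 8 with only the arrays compared and 2 to 3 without 1 array, the lower value without control replicate 2 of Col-0 or control replicate 1 of oxMYB72. For colonized myb72-2 against Col-0 the count of 0 was 0 to 1 without 1 array. The cause was not tested, except that fewer probe sets or arrays entered some of these fits. With 1 array left out, the counts for the WCS417 effect were 18 to 25 in Col-0, 21 to 24 in myb72-2, 16 to 20 in oxMYB72 and 25 to 30 in the mean of genotypes. Of these the lower members were 4 to 7 in Col-0 (8 with all arrays) and 4 to 7 in myb72-2 (7 with all arrays). They were 11 to 14 and 8 to 12 for colonized oxMYB72 against myb72-2 and Col-0, and 0 to 0, 4 to 5 and 7 to 9 for the differences of effects (myb72-2 against Col-0, and oxMYB72 against Col-0 and myb72-2). For the last of these the members with a larger effect were 1 to 2, the higher value without control replicate 3 or WCS417 replicate 1 of oxMYB72 (2 also with the variance trend and without the dimmest probe sets), and median centring moved the share of larger effects among all called probe sets from 33.3% to 20.3%.

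Same-numbered samples did not deviate together (median r 0.00731, -0.304 to 0.257, above 0.1 in 12 of 45 pairs, against a median of 0.00294 for other numbers), so the numbers are not taken as pairing. Pairs with other numbers ranged from -0.408 to 0.390. Colonized Col-0 replicate 1 correlated at 0.288 with myb72-2 replicate 3 and at 0.292 with oxMYB72 replicate 2, and those 2 at 0.332. A block for the replicate number does not cover such shared deviations, whose source was not tested. With the replicate number as a block the counts were 24 in Col-0, 24 in myb72-2, 20 in oxMYB72, 27 in the mean, 1 and 0 for myb72-2 against Col-0 untreated and colonized, 5 and 5 for untreated and 13 and 10 for colonized oxMYB72 against myb72-2 and Col-0, and 0, 5 and 8 for the differences of effects. The block ended 2 calls, AT2G34060 in Col-0 (0.43) and AT3G01190 untreated in oxMYB72 against myb72-2 (-0.36). Taking the dimmest probe set per locus gave no other value, since each member had 1. Dim members, such as AT5G19880 with array values of 2.80 to 5.18, lie where RMA compresses differences.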

Other observations

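Among the loci without a probe set of their own, 4 probe sets assigned to several genes carried 6 listed peroxidase loci. A probe set shared by 2 of these loci rose with WCS417 by 1.39 ± 0.14 in Col-0, 1.62 in myb72-2 and 1.37 in oxMYB72 on the log2 scale. The same probe set was lower in oxMYB72 than in Col-0 both untreated (-1.09, limma adjusted p = 2.16e-05) and with WCS417 (-1.11, limma adjusted p = 2.91e-05). Another shared by 2 listed loci gave 0.21 and 0.23 in Col-0 and myb72-2, which did not pass, and rose by 0.43 in oxMYB72. Of the others, 1 gave -0.11 and -0.21 and fell by 0.53 in oxMYB72, and 1 was not called (-0.07, 0.06 and -0.03). Which of the genes on such a probe set gave the signal cannot be told apart.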
